A study of Mus musculus with 11 samples.

Results

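The transcriptome described here was that of the adult wild-type (WT) mouse testis. Members were the 4 WT libraries of a count table of 11 testis libraries, and the remaining libraries, 4 from Irp1-/- mice and 3 from Irp2-/- mice, were not used. The study asked what loss of the iron regulatory protein IRP1 does to sperm production, and its WT animals are the reference for that question. All 4 WT samples were labelled wild-type on C57Bl/6J, received no treatment, and were decapsulated testes of 20-week-old mice. By the methods, WT littermates came from interbreeding Irp1+/- mice. Poly(A) RNA was sequenced with a stranded mRNA preparation. Each of the 24411 rows of the table is a gene symbol, and every value below comes from the 4 WT columns alone. WT replicate 1 held 18257228 counts, replicate 2 held 16358055, replicate 3 held 17323004 and replicate 4 held 18017776. Levels are counts per 1000000 counts of a library (CPM), and genes are ranked against each other by CPM per kilobase of transcript unless CPM is named. Lists of 4 values follow the order of WT replicates 1, 2, 3 and 4, and errors are SD over these 4 libraries. The labels name no culture, litter or day for a sample, so the spread between libraries may be partly technical.

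Spermatogenesis runs inside the seminiferous tubules. Spermatogonia divide by mitosis, spermatocytes pass through meiosis, and haploid round spermatids elongate into spermatozoa while transition proteins and then protamines take the place of histones on the DNA. Sertoli cells carry the germ cells within the tubule, peritubular myoid cells surround it, and Leydig cells between the tubules make testosterone from cholesterol. In whole tissue, fewer cells of a type and less RNA per cell cannot be told apart.

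The genes with the highest level per kilobase were those that package sperm DNA. Prm2 and Prm1, the protamines, led the ranking, and Tnp2 and Tnp1, the transition proteins, took the next places. The value of Prm2 was 10512, 10936, 10600 and 10649 CPM per kilobase, and that of Prm1 was 6190, 6487, 6515 and 6908. For Tnp2 it was 5920, 6354, 6133 and 6353, and for Tnp1 4128, 4501, 4406 and 4764. Prm2 was above the other 3 genes in every library, and Tnp1 was below the other 3 in every library. The values of Prm1 and Tnp2 lay closer together, with Prm1 the higher in each library.

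Prm1 (chr16:10796332-10796823), Prm2 (chr16:10791377-10792105), Prm3 and Tnp2 (chr16:10787935-10788655) lie next to each other within chr16:10787935-10796823 of GRCm38, a stretch of 8889 bases. These 4 genes together took 1.33% ± 0.031 of all counts. Tnp1 (chr1:73015074-73015899) lies apart from them on chromosome 1. The 150 bases upstream of the RefSeq start of the 4 genes that led the ranking are shown because these genes head the ranking. They are written 5′ to 3′ on the minus strand, from RefSeq on GRCm38.p6, and cover chr16:10792106-10792255 for Prm2, chr16:10796824-10796973 for Prm1, chr16:10788656-10788805 for Tnp2 and chr1:73015900-73016049 for Tnp1. Capitals mark TATA between positions -40 and -20 from the start, and TGANNTCA anywhere in the window.
Prm2: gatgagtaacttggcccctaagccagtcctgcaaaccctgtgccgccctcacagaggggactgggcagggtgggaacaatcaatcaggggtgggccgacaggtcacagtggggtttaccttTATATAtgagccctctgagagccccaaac
Prm1: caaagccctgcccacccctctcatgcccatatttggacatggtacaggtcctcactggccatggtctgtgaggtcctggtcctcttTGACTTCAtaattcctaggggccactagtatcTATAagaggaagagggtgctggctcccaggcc
Tnp2: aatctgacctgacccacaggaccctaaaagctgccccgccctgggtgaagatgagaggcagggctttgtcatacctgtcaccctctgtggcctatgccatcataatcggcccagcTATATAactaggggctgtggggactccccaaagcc
Tnp1: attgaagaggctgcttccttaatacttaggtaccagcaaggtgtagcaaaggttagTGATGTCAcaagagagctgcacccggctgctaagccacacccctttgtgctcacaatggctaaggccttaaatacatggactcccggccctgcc

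The letters TGANNTCA, a relaxed form of the cyclic AMP response element, read the same on both strands. They began at position -64 in Prm1 and at -94 in Tnp1, and were absent from the windows of Prm2 and Tnp2. The letters TATA, which also read the same on both strands, were in the windows of Prm2, Prm1 and Tnp2 between -40 and -20, where Tnp1 had none. Both motifs were chosen after these sequences were seen. Of 32851 RefSeq promoter windows of the same length, 8.37% held TGANNTCA and 5.81% held TATA in that stretch. Among the 100 genes with the highest level per kilobase, 80 were matched by symbol to 120 promoter windows, of which 17 (14.2%) held TGANNTCA and 5 (4.17%) held TATA. Of the 18 elongating spermatid genes, 15 were matched to 20 windows, of which 7 (35%) held TGANNTCA and 3 (15%) held TATA, and the windows of Prm1, Tnp1, Prm2 and Tnp2 shown above are among these 20.

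Below the 4 chromatin proteins, the ranking per kilobase held sperm tail, energy and RNA-binding genes. Smcp, a cysteine-rich protein of sperm mitochondria, reached 2904 ± 72.6 CPM per kilobase, and Oaz3, the antizyme of spermatids, 2000 ± 13.8. Ldhc, the lactate dehydrogenase of germ cells, followed at 1993 ± 52.7. Oaz3 and Ldhc did not differ beyond their spread. Then came Tmsb10, an actin-binding thymosin, at 1715 ± 26.1, Ybx2, an RNA-binding protein of germ cells, at 1690 ± 21.9, and Fabp9, a fatty acid binding protein of spermatids, at 1656 ± 7.14. The other genes among the 20 highest were Gstm5, Dbil5, Odf2, Gapdhs, Ubb, Crisp2, Tcp11, Gsg1, Pebp1 and Odf1, with means between 1279 and 1646 CPM per kilobase. Odf1 and Odf2 encode outer dense fibre proteins of the tail, Gapdhs the glyceraldehyde phosphate dehydrogenase of sperm, and Crisp2 a cysteine-rich secretory protein of the acrosome. By plain CPM, where long transcripts collect more counts, Odf2 was next after Prm2 at 4896 ± 88.5 CPM, and the scaffold gene Akap12 followed at 4024 ± 188 CPM.

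**Figure D1:**
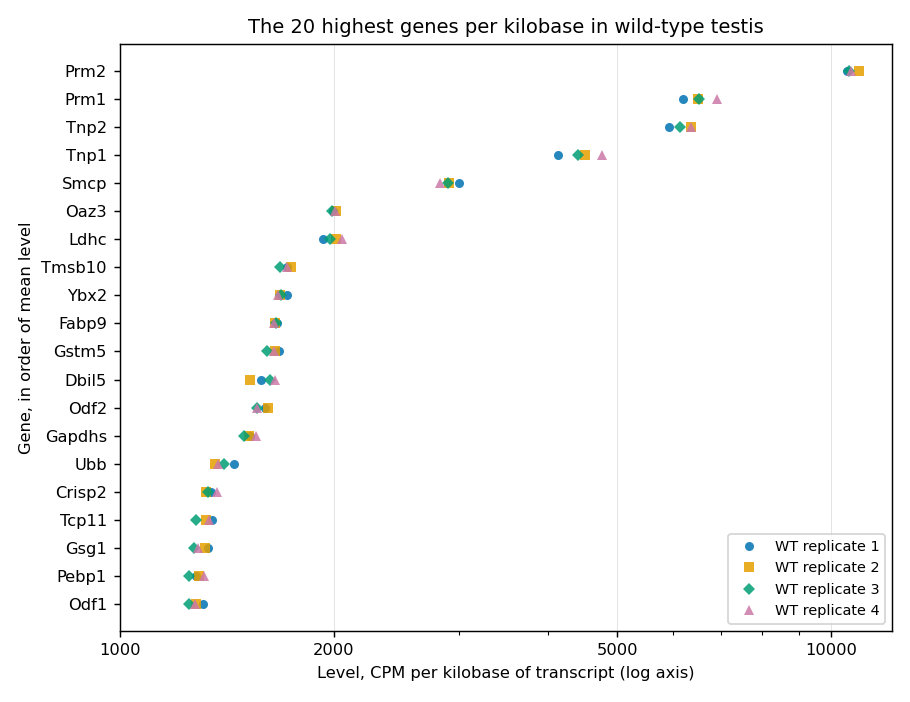
Level in CPM per kilobase (log axis) of the 20 genes with the highest mean, with 1 point for each of the 4 WT libraries. Prm2 stands above the other genes in every library, and the means descend from 1715 for Tmsb10 to 1279 for Odf1.

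Counts were spread over many genes. The 10 genes highest by CPM held 3.67% ± 0.058 of a library's counts, the 100 highest held 15.8% ± 0.15, and between 913 and 948 genes were needed to reach 50%. Between 75 and 78 genes exceeded 1000 CPM in a library. At least 10 counts in every library were found for 15278 genes, whereas 4174 genes had none in any WT library. A floor of 3 counts corresponds to 0.164 to 0.183 CPM in these libraries, and this floor covers counting error only. Genes annotated as protein coding took 97.6% ± 0.012 of the counts and long non-coding RNA genes 1.32% ± 0.007.

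Many enzymes and housekeeping proteins have a relative that is made mainly in germ cells, and in most pairs examined the germ cell relative was the higher one. Of 20 such pairs, the germ cell gene was higher per kilobase in 4 of 4 libraries for 17. The ratio of Pgk2 to Pgk1, the phosphoglycerate kinases, was 75.1, 81.9, 59.6 and 67.2 (70.9 ± 9.65), and that of Gapdhs to Gapdh was 31.1, 30.8, 30.2 and 32.9 (31.2 ± 1.17). Pgk1, which lies on the X chromosome, was at 12.9, 11.9, 16.4 and 14.8 CPM. Ldhc exceeded Ldha, the muscle-type lactate dehydrogenase, 4.15 ± 0.140 times.

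Subunits of the respiratory chain had the same order. Cox7b2 over Cox7b gave 36.3 ± 2.56, Cox8c over Cox8a 18.9 ± 2.50, and Cox6b2 over Cox6b1 11.04 ± 1.41. For the cytochromes c the ratio of Cyct to Cycs was 7.19 ± 0.856, or 1.51 ± 0.1795 by counts with no correction for length. The ribosomal protein genes Rpl39l and Rpl10l exceeded the X-linked Rpl39 and Rpl10 by 18.6 ± 2.79 and 5.12 ± 0.673 times. Among transcription factors, the TATA-binding protein relative Tbpl1 stood 9.49 ± 0.195 times above Tbp. Much of this came from the lengths used, 12794 bases for Tbp and 2873 for Tbpl1. By counts with no correction for length the ratio of Tbpl1 to Tbp was 2.13 ± 0.0439.

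The exceptions were few. Aldoart1, an aldolase of spermatids, was below Aldoa in every library, with a ratio of 0.299 ± 0.00661, and Calr3, a calreticulin of spermatids, was below Calr with 0.350 ± 0.0266. Slc25a31, the ADP/ATP carrier of germ cells, was level with Slc25a5 at 1.17, 1.10, 0.983 and 1.00, above 1 in 3 of the 4 libraries. By counts with no correction for length, 18 pairs favoured the germ cell gene. Several of the widely expressed genes share 50-base windows with other genes, with 53.9% of windows for Pgk1, 38.6% for Hspa8, 33.8% for Slc25a5, 33.5% for Rpl10, 25.9% for Cycs and 24.7% for Gapdh. Their partners Pgk2, Hspa2, Slc25a31, Cyct and Gapdhs share 0% and Rpl10l 7.6%. The effect of shared reads on these ratios was not tested.

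**Figure D2:**
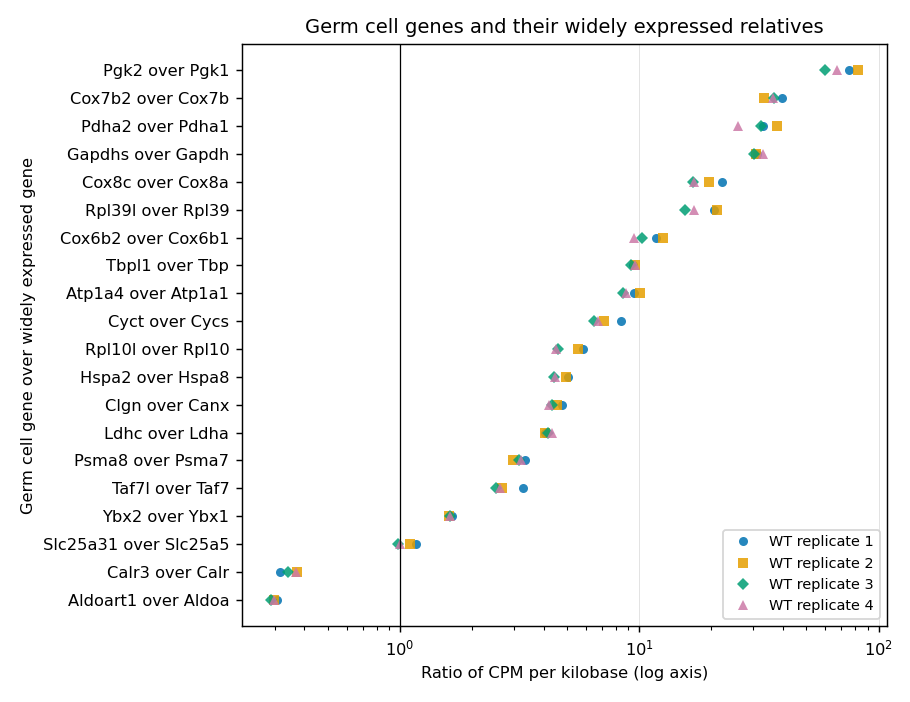
Ratio of CPM per kilobase of a germ cell gene to that of its widely expressed relative (log axis), with 1 point per WT library for 20 pairs. The vertical line marks equal levels, and 17 pairs lie right of it in all 4 libraries.

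The tissue label was checked with 67 germ cell and 54 somatic marker genes, all of which had a count in every WT library. Germ cell genes took 4.54% of all counts and somatic genes 0.327%. The germ cell share varied with a CV of 1.30% and the somatic share with a CV of 8.42%. Summed levels depend on how many genes a list holds and how long they are, so the median CPM per kilobase of a list is given beside its sum.

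Spermatogonial genes were the lowest of the germ cell lists. Their sum was 181, 185, 194 and 202 CPM over 14 genes, with a median of 3.17 CPM per kilobase. Gfra1, the receptor subunit for GDNF on undifferentiated spermatogonia, was at 11.3, 12.3, 11.2 and 9.44 CPM. Zbtb16, the factor PLZF of the same cells, was at 4.88, 5.20, 4.21 and 3.44 CPM. Stra8, which is switched on before meiosis, was at 10.7 ± 1.32 CPM. Id4, an inhibitor of DNA binding, was at 37.0 ± 2.15 CPM and Uchl1, a ubiquitin hydrolase, at 30.7, 35.0, 35.6 and 38.3 CPM. Per kilobase the order of this pair turned, with Uchl1 at 29.7 and Id4 at 9.61.

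Meiotic genes were higher per kilobase. The early prophase list of 14 genes summed to 2327, 2339, 2355 and 2367 CPM, a CV of 0.7504%, with a median of 63.7 CPM per kilobase. Sycp3, a protein of the synaptonemal complex axis, was at 146, 145, 154 and 154 CPM. Stag3, the meiotic cohesin subunit, was at 482, 487, 486 and 486 CPM. Dmc1, the recombinase, and Prdm9, which places recombination hotspots, were low at 17.1 ± 0.955 and 7.56 ± 0.957 CPM. The pachytene and diplotene list summed to 7119, 7286, 7160 and 7314 CPM over 10 genes. Among its members were Hspa2, a meiotic heat shock protein, at 1382, 1390, 1346 and 1337 CPM and Mael, a factor of transposon silencing, at 1226 ± 10.49 CPM. Piwil1, which binds piRNAs, was at 468, 504, 508 and 522 CPM. H1f6, the testis linker histone, listed in the table as Hist1h1t, was the lowest member at 1.21, 1.04, 1.44 and 1.94 CPM. These libraries were made from poly(A) RNA, and whether that lowers the counts of this histone gene was not tested.

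The spermatid lists followed. Round spermatid genes summed to 2145, 2103, 2062 and 2038 CPM over 11 genes, with acrosomal Acrv1 at 195, 198, 194 and 191 CPM and the transcriptional activator Crem at 200.2, 191, 178 and 181 CPM. Elongating spermatid genes summed to 33063, 33997, 33266 and 34058 CPM over 18 genes, with a median of 1057 CPM per kilobase against 88.4 for round spermatids. Akap4, the main protein of the fibrous sheath, was at 2295, 2379, 2371 and 2452 CPM, and the spermatid linker histone gene Hils1 was at 374, 415, 387 and 430.5 CPM. The lowest member by CPM was Prm3 at 176 ± 2.67.

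Sertoli cell genes lay between the spermatogonial and the meiotic lists per kilobase. The Sertoli cell list summed to 1578, 1599, 1707 and 1727 CPM over 16 genes, with a median of 14.1 CPM per kilobase, and Clu, a secreted chaperone that other cells also make, accounted for 785, 785, 862 and 871 CPM of it. Sox9, the transcription factor of Sertoli cell identity, was at 15.4, 15.8, 18.5 and 19.1 CPM. Wt1, another such factor, was at 42.7, 47.9, 44.0 and 44.0 CPM. The FSH receptor gene Fshr and Amh, the anti-Müllerian hormone, were near the bottom of the list at 1.80 ± 0.648 and 1.52 ± 0.320 CPM. Peritubular myoid genes summed to 414, 413, 423 and 443 CPM, of which Actg2, a smooth muscle actin, made up 233 ± 8.42 CPM. Whether these Actg2 counts came from myoid cells alone was not tested. Acta2, the other smooth muscle actin, was at 36.6, 40.7, 45.6 and 45.7 CPM. Endothelial genes summed to 44.9, 48.4, 47.6 and 46.8 CPM.

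Macrophage, lymphocyte and blood genes and genes of neighbouring tissue had low sums. The macrophage list summed to 73.8, 92.2, 80.6 and 74.9 CPM, with the mannose receptor Mrc1 at 29.8, 34.3, 33.6 and 33.5 CPM. Lymphocyte genes summed to 4.44, 5.44, 4.79 and 4.94 CPM. Blood genes summed to 36.6, 34.7, 30.5 and 33.1 CPM, nearly all from Alas2, of heme synthesis, at 15.7 ± 0.846 CPM and the alpha globin genes. The list names the beta globin gene Hbb-bs, which had no count, whereas the table also holds Hbb-b1 and Hbb-b2, which are not in the list and together had 19.2, 17.6, 9.29 and 14.9 CPM. For the epididymis, the duct that receives sperm, 4 of 10 genes (Lcn5, Lcn8, Adam7 and Rnase9) had no count in any WT library, and the list summed to between 4.44 and 5.02 CPM, nearly all of it from Rnase10 and Ros1. Fat genes summed to 10.2, 9.11, 9.47 and 10.4 CPM, of which Adipoq, the hormone adiponectin, made up 8.26 ± 0.564 CPM. Mesothelium genes summed to 4.82, 3.85, 5.83 and 5.77 CPM, nearly all from Lrrn4, while the defining Msln and Upk3b were each counted in 1 library at 0.110 CPM or less.

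**Figure D3:**
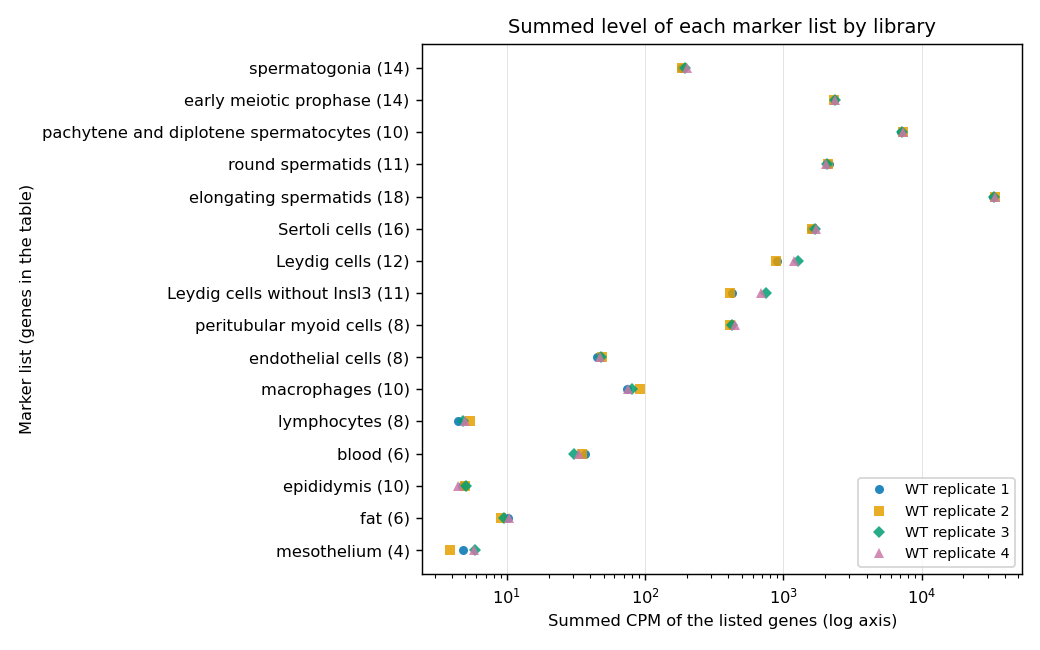
Summed CPM of 15 marker lists, and of the Leydig list with Insl3 left out (log axis), with 1 point for each WT library. Elongating spermatid genes are the highest list, at 33063 to 34058 CPM, and the points of a list overlap closely except for the Leydig, macrophage and mesothelium lists.

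Variation between the 4 WT libraries was small for most genes. The biological CV is an estimate of the spread beyond counting error, drawn towards the estimates of genes of like level. It can therefore exceed the plain CV of a gene's 4 values, as for Prm2 with 3.64% against 1.72%. The biological CV had a median of 6.12% over 15206 genes, and a common value of 4.79%. A chi-square test of homogeneity asked whether a gene's counts differed between the 4 libraries beyond counting error, and it called 2733 genes (18.0% of those tested) at an adjusted p under 0.05. It tests libraries, not conditions, and its calls rise with depth. Among genes at 10 CPM or more it called 25.2%, at 100 CPM or more 1299 of 2385 (54.5%), and at 1000 CPM or more 71 of 77 (92.2%). Without WT replicate 1 the count fell to 1478, and it was between 1961 and 2384 without one of the others. Among the 2733 genes, replicate 1 was the highest library for 1094 and replicate 4 the lowest for 1061. Between pairs of libraries the median absolute difference was 0.0865 to 0.12 on the log2 scale, and the chi-square per degree of freedom was 1.89 to 4.64, where counting error alone gives about 1.

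Counts of called genes are read against the shares at like level given above. Of 20 lists, 3 had a CV of the summed CPM above 10%, those of Leydig cells (18.3%), mesothelium (18.4%) and macrophages (10.51%). Among elongating spermatid genes 15 of 18 were called, at levels where most genes were called. Their median biological CV was 3.75%, beside 3.73% for all genes at 1000 CPM or more and 3.93% at 100 CPM or more. These estimates are drawn towards genes of like level, so their closeness is partly built in. The median plain CV was 2.60% for the list, beside 1.98% and 2.91%. Prm2 had a biological CV of 3.64% and Prm1 of 3.80%. Early meiotic genes had 4 of 14 called, pachytene and diplotene genes 5 of 10, round spermatid genes 5 of 11 and spermatogonial genes 2 of 13. Sertoli genes had 5 of 16 called and a median biological CV of 6.06%. Of 8 endothelial genes 0 were called by the chi-square test and 2 had an unadjusted p under 0.05, and of myoid genes 4 of 8 were. For Leydig cell genes 10 of 11 were called and the median biological CV was 11.9%, the highest of the 5 somatic lists.

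Of the 10 genes with the lowest biological CV at 10 CPM or more, several were highly expressed germ cell genes. Hsp90aa1, a heat shock protein, was lowest with 3.52% and levels of 2297, 2269, 2318 and 2328 CPM. Sord, the sorbitol dehydrogenase, followed at 2283, 2301, 2323 and 2365 CPM, and the others were Hspa4l, Tcp1, Tubb4b, Crisp2, Pgk2, Actg1, Nbr1 and H1fnt. In such genes the 4 libraries differed by a few percent of the mean.

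**Figure D4:**
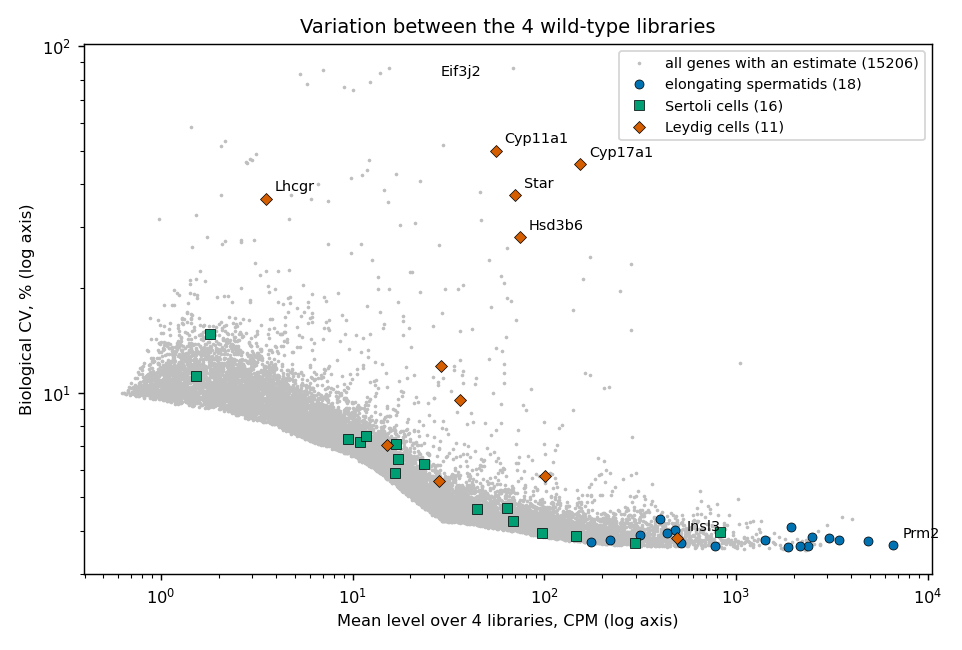
Biological CV in percent against mean CPM (both log axes) for 15206 genes, with 3 marker lists in colour. Elongating spermatid genes lie on the right, while Cyp11a1, Cyp17a1, Star and Hsd3b6 of the Leydig list lie far above genes of like level.

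Several steroidogenic genes of Leydig cells varied between the libraries. Star, which brings cholesterol into mitochondria, was at 54.7, 41.1, 82.3 and 103 CPM. Cyp11a1, which cuts the cholesterol side chain, was at 33.9, 28.5, 84.7 and 75.7 CPM, and Cyp17a1, the 17-hydroxylase and lyase, was at 93.5, 90.2, 239 and 192 CPM. Replicates 3 and 4 were high and replicates 1 and 2 low for these 3 genes. The highest library exceeded the lowest 2.50 times for Star, 2.97 times for Cyp11a1 and 2.65 times for Cyp17a1, and the biological CV was 37.3%, 49.98% and 45.7%. Hsd3b6, the adult Leydig 3-beta-hydroxysteroid dehydrogenase, was at 59.6, 52.3, 101 and 86.2 CPM with a biological CV of 28.1%. Its relative Hsd3b1 was at 29.2, 35.2, 37.2 and 42.9 CPM with a biological CV of 9.54%. Not every gene of the pathway had a wide spread. Fdx1, the ferredoxin that passes electrons to mitochondrial P450 enzymes, had a biological CV of 5.55%, and Hsd17b3, which makes testosterone from androstenedione, had 7.06% and was not called by the chi-square test introduced above.

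The regulators of the pathway were also higher in replicates 3 and 4. Lhcgr, the receptor for luteinizing hormone, was at 2.35, 1.83, 5.20 and 4.72 CPM, and Nr5a1, the factor SF-1 that acts on steroidogenic promoters, was at 24.1, 24.4, 33.7 and 32.9 CPM. Scarb1, which takes up cholesterol from lipoproteins, was at 89.3, 96.1, 113 and 106 CPM. Kit, listed with spermatogonia but also made by Leydig cells, was at 15.6, 15.8, 25.2 and 24.6 CPM, whereas the other spermatogonial genes had a biological CV of 12.3% or less. Replicates 3 and 4 were the highest pair for 11 of the 11 Leydig genes tested, as they were for 22.4% of all 15206 genes after TMM scaling and for 30.7% with library totals. This order was seen in the values first and was not tested. Hsd11b1, an enzyme of adult Leydig cells, was too low for the test at 0.712, 0.489, 0.0577 and 0.222 CPM.

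Insl3 varied little. Insl3, the peptide hormone of Leydig cells, was at 479, 476, 522 and 498 CPM, with a biological CV of 3.81%. Of its 50-base windows, 61.8% also occur in transcripts of Jak3, which spans it at chr8:71676383-71690577 and was at 11.4, 13.0, 9.47 and 12.4 CPM. Without Insl3 the Leydig list summed to 426, 409.8, 745 and 690.2 CPM. From the lowest to the highest library that sum moved 1.82-fold, the Sertoli sum 1.09-fold, the myoid sum 1.07-fold and the macrophage sum 1.25-fold. Actg2 makes up most of the myoid sum, and without it that sum was 177, 177, 203 and 205 CPM, also higher in replicates 3 and 4. Replicates 3 and 4 were the highest pair for 6 of 8 myoid and 9 of 16 Sertoli genes with library totals, and for 6 of 8 and 7 of 16 after TMM scaling. Leaving out 1 library at a time, the CV of Star ran from 30.1% to 48.8%, that of Cyp11a1 from 41.9% to 63.3% and that of Cyp17a1 from 42.5% to 60.4%.

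**Figure D5:**
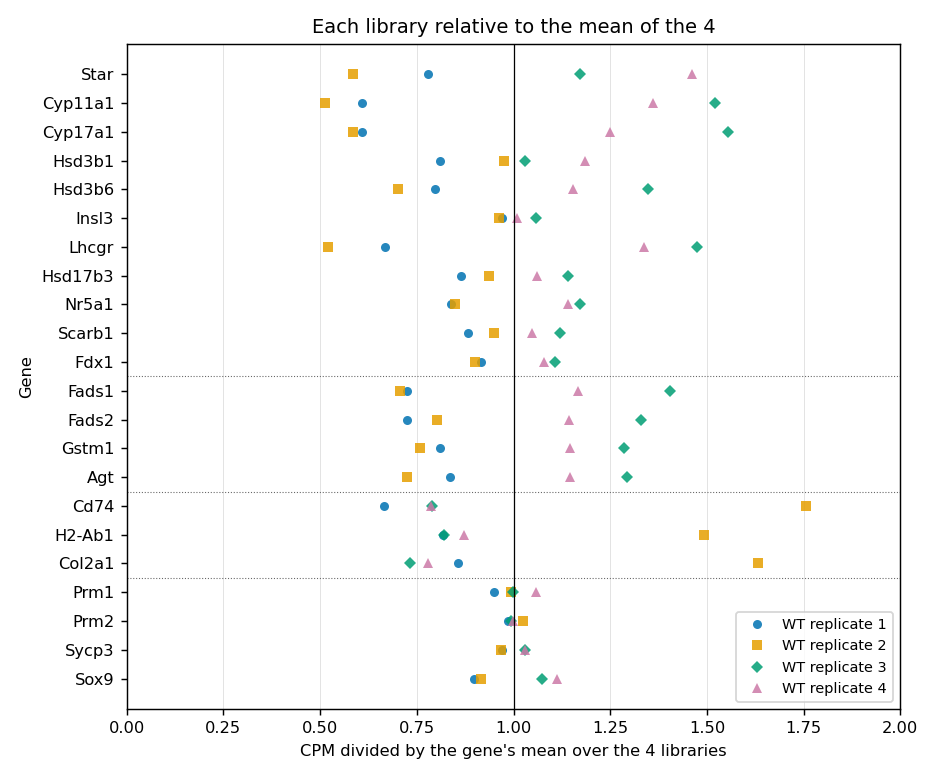
CPM of each library divided by the gene's mean over the 4 WT libraries. Rows above the first dotted line are Leydig cell genes, then Fads1, Fads2, Gstm1 and Agt, then Cd74, H2-Ab1 and Col2a1, and last Prm1, Prm2, Sycp3 and Sox9. The vertical line marks the mean.

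Genes outside the Leydig list were also higher in replicates 3 and 4. Fads1, the delta-5 fatty acid desaturase, was among the 20 most variable genes at 33.7, 33.0, 65.3 and 54.3 CPM, as was Gsta3, a glutathione transferase, at 14.8, 15.3, 29.0 and 25.1 CPM. Fads2, the delta-6 desaturase, was at 46.2, 51.2, 84.7 and 72.8 CPM. Gstm1, another glutathione transferase, was at 229.5, 215, 364 and 325 CPM, and Agt, angiotensinogen, was at 145, 126, 225 and 199 CPM. Of cholesterol synthesis, Dhcr7 was at 10.1, 10.6, 17.6 and 16.04 CPM. Msmo1, of the same pathway, was at 8.44, 10.1, 14.4 and 14.7 CPM. The last 5 of these genes were picked after their values were seen.

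Another set was high in replicate 2. Cd74, the chaperone of MHC class II, was at 7.89, 20.8, 9.35 and 9.32 CPM. The class II gene H2-Ab1 was at 7.997, 14.6, 8.02 and 8.55 CPM, and H2-Aa was at 4.60, 8.56, 4.68 and 5.55 CPM. Replicate 2 also had the highest C1qa, a complement gene of macrophages, at 6.08, 10.3, 6.75 and 5.83 CPM. Not all of the macrophage list had this order. Cd68 was lowest in replicate 2, at 2.03, 1.28, 2.02 and 1.44 CPM. Cx3cr1 was not raised there, at 3.29, 3.24, 4.16 and 3.275 CPM. The other members were highest in replicate 2, Mrc1 only by a little. The macrophage list summed to 92.2 CPM in replicate 2 against 73.8 to 80.6 in the others. The chi-square test called 4 of 10 of its genes, against 18.0% of all genes tested. Col2a1, the collagen of cartilage, was at 39.8, 75.7, 34.1 and 36.1 CPM. H2-Ab1 and H2-Aa were picked after their values were seen. Whether these genes share a source was not tested.

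Near-identical copies were found among the most variable genes. Of the 20 genes with the highest biological CV at 10 CPM or more, 19 had a transcript to search, and 9 of these shared at least 50% of their 50-base windows with another gene. Among the 100 genes highest in biological CV, 26 of 93 with a transcript did so. The share over all genes was not computed. Eif3j2, a translation initiation factor subunit, was at 84.2, 7.83, 89.4 and 93.4 CPM, and its copy Eif3j1 was at 0, 80.4, 0 and 0. Replicate 2 had almost all counts on Eif3j1 and the others had none there. Their sum was 84.2, 88.2, 89.4 and 93.4 CPM, a CV of 4.25%. Eif3j2 shared 91.8% of its windows.

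Several other copies had the same pattern. Btg3, an antiproliferative gene, was at 12.2, 18.5, 5.31 and 12.6 CPM. Its copy Gm7334 was at 14.2, 8.74, 22.7 and 15.5 CPM, and the sum was 26.4, 27.2, 28.1 and 28.1 CPM. Gm5512 was at 20.0, 1.77, 15.3 and 18.4 CPM, and with Rmnd1, a mitochondrial protein gene, it summed to 129, 130, 128 and 121 CPM. The alpha globin copy Hba-a2 was at 0, 12.2, 0 and 0 CPM, and its sum with Hba-a1 was 19.6, 19.5, 14.1 and 17.1 CPM. In each of these sums the libraries lay closer together than in the single copies. This did not hold for the beta globin genes Hbb-b1 and Hbb-b2, whose sum had a CV of 28.5% against 23.95% for Hbb-b1 alone. For Ass1, argininosuccinate synthase, and its copy Gm5424 the sum still ran 22.1, 17.8, 60.9 and 58.6 CPM, with replicates 3 and 4 high. The X-linked multicopy genes Gm14819, Gm14632 and Gm10230 share 99.6% or more of their windows with other genes, and their levels are uncertain. Gm14819 had the highest biological CV of all genes named by variation, 86.5%, at 15.6, 13.3, 30.8 and 2.22 CPM.

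Iron genes are described because the study deleted an iron regulatory protein, and no knockout library enters here. In iron-poor cells IRP1 and IRP2 bind iron-responsive elements in mRNAs, and IRP1 otherwise works as the cytosolic aconitase. Ireb2, which encodes IRP2, was at 140.5, 142, 132 and 140.1 CPM, and Aco1, which encodes IRP1, was at 9.59, 12.2, 12.1 and 12.9 CPM. Per kilobase, Ireb2 was at 24.0 ± 0.772 and Aco1 at 3.05 ± 0.381, and Ireb2 was the higher in each of the 4 libraries. Fbxl5, the subunit that marks IRP2 for degradation, was at 109.9 ± 2.42 CPM.

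The storage and transport genes followed. Fth1, ferritin heavy chain, was at 142, 141, 148 and 151 CPM, Ftl1, the light chain, at 54.99, 52.2, 70.8 and 68.3 CPM, and Ftmt, the mitochondrial ferritin, at 83.8, 81.7, 75.7 and 72.7 CPM. Ftl1 was higher in replicates 3 and 4 and had a biological CV of 10.7%. Ncoa4, the receptor that takes ferritin to lysosomes, was at 223 ± 4.80 CPM. Tfrc, the transferrin receptor, was at 17.2 ± 1.59 CPM and Slc40a1, the exporter ferroportin, at 1.93 ± 0.433 CPM. Hmox2, the constitutive heme oxygenase, was at 626, 629.7, 617 and 631 CPM, while Hmox1, the inducible form, was at 8.33 ± 0.150 CPM. Hamp, the hormone hepcidin, was counted in 1 library only, at 0.110 CPM. The chi-square test called 6 of 23 iron genes (26.1%), against 18.0% of all genes tested and 25.2% of those at 10 CPM or more. The median level of the list was 39.9 CPM, so its share was close to that at like level. The list of 25 genes summed to 2018, 2010, 2047 and 2070 CPM.

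By chromosome, X-linked genes held few counts. The X carried 1062 of the genes and 1.24% ± 0.037 of the counts, and the median level of its genes with at least 10 counts in every library was 3.08 CPM per kilobase. On the autosomes that median lay between 4.98 and 7.80 CPM per kilobase. Only 1 gene of the 100 highest per kilobase was X-linked, and 11 lay on chromosome 17. Akap4, given above, was that X-linked gene. The Y carried 0.0468% of the counts, with Sly, a multicopy gene of spermatids, at 84.2 ± 2.87 CPM.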

How the data were processed

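Poly(A) RNA of decapsulated testis was sequenced by the study with an Illumina stranded mRNA kit. Per the labels and the study's methods, the authors used bcl2fastq (version 2.20.0.422 in the labels), an nf-core RNA-seq workflow and mm10, and deposited a table of raw whole-number counts per gene symbol. The counting program is not given in the sources used here, so how reads shared by copies were assigned is not known, and the counts may be rounded estimates. The labels also name DESeq2, which the authors ran for their own comparisons. All 4 WT column names carry the letter L, whose meaning is not stated. The 7 knockout columns were not used, and no contrast was fitted.

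Levels are counts per 1000000 counts of a library (CPM). Lengths came from GENCODE M21 on GRCm38 (24056 of 24411 symbols, the median over transcripts that RefSeq also lists), and positions and biotypes from RefSeq GRCm38.p6, to which 23194 symbols matched directly, 1095 through an older symbol, 13 ambiguously and 109 not at all. The biological CV came from edgeR 4.0.16 in R 4.3.3 (intercept only, TMM, filterByExpr, robust estimateDisp), which draws each gene towards genes of like level. The chi-square test of homogeneity set each gene's counts against TMM effective library sizes, with at least 5 expected counts per library and Benjamini-Hochberg adjustment over all genes tested. On counts simulated for these 4 libraries with 15082 genes, 200 had a biological CV of 30% and the others counting error only. The test recovered 91.5% of the 200, and 4.69% of its calls fell on the other genes. The 200 were drawn from genes of higher count, so the 91.5% does not cover genes of low count. In the real libraries most genes vary beyond counting error, so the 4.69% does not carry over to them. In a separate simulation with a biological CV of 5% for every gene, the common CV was recovered as 5%. With 16358055 to 18257228 counts per library, the counting error of a gene at 10 CPM was larger than the median biological CV. Shared windows are stretches of 50 bases found in GENCODE transcripts of more than 1 gene.

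Genes were named by rule, as the marker genes, the 20 highest by CPM and per kilobase, list and pair members, and the 20 highest and 10 lowest in biological CV at a mean of 10 CPM or more. Exceptions are stated where they occur. Members and lists were chosen with earlier results of these data known. Alternatives were other scalings, filters and length rules, and leaving out each replicate. Before averaging, the libraries were checked pairwise and none was a duplicate within counting error. Promoters of Oaz3, Odf1, Star and Cyp17a1 were not used here.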

Additional observations from a re-analysis of the deposited data

Results flagged for a closer look

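In 135 sets of 4 WT values searched (single genes, list sums and pair ratios), 10 had 1 library far from the other 3. Chance flags about 1 in 20 sets, or 6.8 here, but the sets hold genes named for their high variation or picked after their values were seen, and copies that exchange counts, so the 2 numbers are not a test. Replicate 2 stood apart for 6 of them. It was high for Cd74 (20.8 CPM against 7.89 to 9.35 in the others), for H2-Ab1 (14.6 against 7.997 to 8.55), both of MHC class II antigen presentation, and for Col2a1, the cartilage collagen (75.7 against 34.1 to 39.8). It was the only library with counts for Eif3j1 (80.4 CPM) and Hba-a2 (12.2 CPM), and it was low for Eif3j2 (7.83 against 84.2 to 93.4), all 3 of which have near-identical copies. Replicate 3 was low for Ireb2 (131.9 CPM against 140.1 to 141.5) and for Actg2, a smooth muscle actin (220.5 CPM against 236 to 238). Replicate 1 was low for Egr1, an immediate early gene (3.62 CPM against 5.27 to 5.44), and high for Sly, a Y-linked multicopy gene (88.5 CPM against 82.4 to 83.4).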

How the results depend on the processing

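The 10 highest genes held 8.24% when levels were taken per kilobase, against 3.67% by CPM. The median biological CV was 6.57% with library totals and 8.72% with no count filter, which adds genes of low count, and 5.98% to 6.45% when 1 WT replicate was left out, against 6.12%. The number of genes called by the chi-square test was 1478 to 2384 when 1 replicate was left out, lowest without WT replicate 1, and 2580 to 2796 with the other scalings and filters. The genes detected, the 3 lists with a CV above 10% (2 to 4 when 1 replicate was left out) and the 17 of 20 pairs (17 to 18 under every length rule, one of them chosen after the data were seen, and without each replicate) stayed within 1.5 times. Single genes and list sums moved by less than 1 SD under TMM and RLE for all 318, while a total without the 10 highest genes raised every level and moved 103 of them by more than 1 SD. Leaving out 1 of 4 values cannot move their mean by as much as 1 SD, so for these levels that setting was no check. With 4 libraries of 1 group, the spread is itself known only roughly, and levels near the floor of 3 counts are not resolved at this depth. No paired analysis was possible because the only group used is WT, so no contrast was fitted.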

Other observations

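Genes that respond quickly to handling or stress of tissue were also examined. Immediate early genes summed to 84.0, 90.8, 95.0 and 90.2 CPM over 11 genes, and of the 9 tested 0 were called by the chi-square test, 2 having an unadjusted p under 0.05, where 18.0% of all genes tested were called and calls are rarer at low counts. Fos, an early response factor, was at 0.383, 0.367, 0.346 and 0.444 CPM, and Nr4a1, the nuclear receptor that made up most of the sum, was at 47.0, 50.4, 49.5 and 47.3 CPM. The heat shock list summed to 1772, 1818, 1809 and 1846 CPM, most of it from Hspa1l, the testis relative of HSP70, at 1087, 1142, 1101 and 1139 CPM, whereas the inducible Hspa1a was at 8.24 ± 0.689 CPM. The chi-square test called 3 of 7 of these, namely Dnajb1, Hspa8 and Hspa1l. All 3 were above 100 CPM, a level at which 54.5% of all genes tested were called.

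The list of 12 circadian clock genes summed to 364, 354, 382 and 390.3 CPM, with 2 of 12 called by the chi-square test, against 18.0% of all genes tested. Per1, a repressor of the clock, was at 164, 156, 173 and 180.3 CPM and Dbp, a clock output gene, was at 7.61, 7.95, 9.01 and 8.44 CPM. Of 12 Y-linked genes, which summed to 248, 234, 239 and 233 CPM, the test called 2 of 12. They were Eif2s3y, a translation factor subunit needed by spermatogonia, at 43.4, 40.9, 42.0 and 36.7 CPM, and Rbmy, a multicopy RNA-binding gene of germ cells, at 15.8, 10.3, 6.12 and 6.99 CPM, whose level is uncertain because its copies share sequence.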
